A study of Sus scrofa with 20 samples.

Results

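The genes described here encode the proteins that form a blood clot, the proteins that restrain clotting, and the proteins that dissolve the clot again. A list of 40 genes was matched by gene name to a table of 25764 pig genes, and 36 of them had a row. FGA, SERPINA10, PROZ and VKORC1 were not analysed here. All 36 genes passed the filter on low values and were tested in every comparison. Normalized poly(A) RNA counts were given for 20 libraries of cells isolated from pigs. Of these, 5 were libraries of porcine biliary tree stem cells (pBTSCs), labelled as taken from gallbladder, which the study isolated from gallbladder and extrahepatic biliary tree. The other 15 were of liver cells labelled by surface antigens, with 4 libraries sorted as CD45-/EpCAM+, 2 as CD45-/EpCAM-, 5 as CD45+, and 2 each as CD31+ and CD146+. Libraries are named here by the storage number that is their title, such as S2.

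The pBTSCs came from newborn piglets with no treatment stated. The study defines biliary tree stem cells as CD45-/EpCAM+ cells of the fetal or neonatal biliary tree. Its methods describe immunoselected stem cells kept for some hours in serum-free medium. There they formed organoids with early mesenchymal cells, among them precursors of endothelial and stellate cells. By the study's supplementary table, and not by the deposited labels, libraries S2, S7 and S11 were from H2B-GFP piglets, in which a fluorescent histone fusion was knocked into the ACTB locus and is made in all cells. The same source gives wild-type donors for S15 and S20. Age at sampling was 1 day, or 2 days for the donor of S11. The H2B-GFP and wild-type preparations also differed in cell number and RNA quality, so the line cannot be told apart from these. The study's methods give neonatal livers as the source of its pig hepatocytes and liver progenitors. The donor, exact age and genotype behind each liver library were not stated in the sources used here. Nothing says which liver libraries shared an animal, so the p-values measure the spread between libraries, which may be technical.

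Clotting proceeds as a cascade of proteases. Tissue factor on cell surfaces binds factor VII and starts it, cofactors V and VIII speed it, and thrombin turns fibrinogen into fibrin. Most of the circulating proteases, their serpin inhibitors and fibrinogen are made by hepatocytes, while von Willebrand factor, thrombomodulin and tissue plasminogen activator are known as endothelial products, and factor VIII as a product of the sinusoidal endothelium of the liver.

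Depth was estimated from the smallest steps in each library. It was between 21199200 and 77833700 reads in 17 libraries, and only 801427 in S13 (CD45-/EpCAM+), 1566990 in S15 (pBTSCs) and 454550 in S22 (CD146+). A count of 3 reads, taken as the floor, was worth from 0.680 to 4.28 normalized counts in the deeper libraries, 77.1 in S13, 37.7 in S15 and 156 in S22. ALB and PTPRC did not part the liver sorts as the labels would, whereas EPCAM was called lower in the CD45-/EpCAM- sort, as described below. ALB, which encodes albumin and marks hepatocytes, was between 513084 and 1789960 in all 15 liver libraries, the CD45+, CD31+ and CD146+ sorts included. PTPRC, which encodes CD45, was at 424 to 2687 in the 5 CD45+ libraries and at 450 to 3027 in the 4 CD45-/EpCAM+ libraries.

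**Figure D1:**
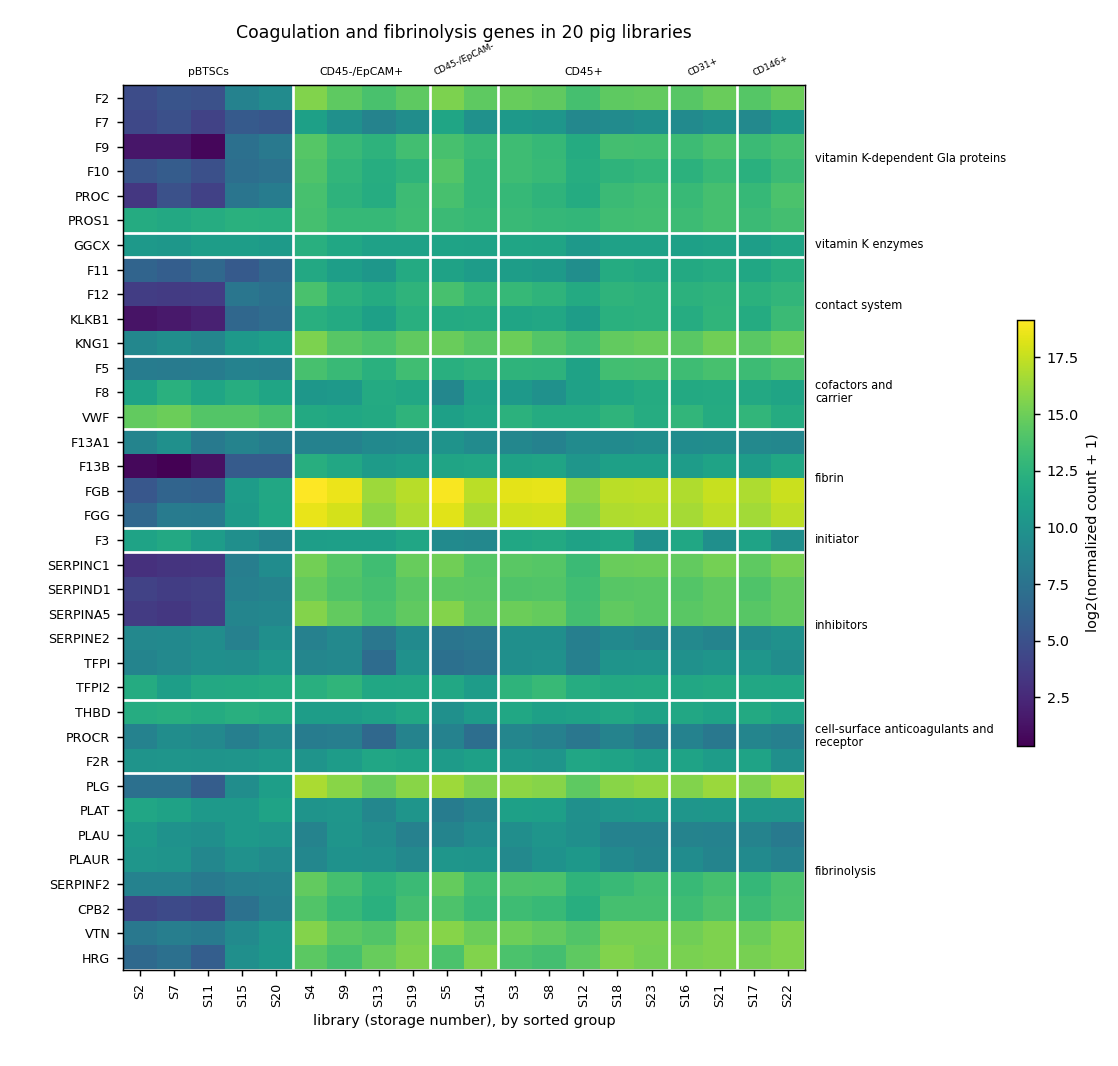
Heatmap of log2(normalized count + 1) for the 36 genes, in rows grouped by role, across the 20 libraries, in columns grouped by sort. The 5 pBTSC columns are dark for most protease, serpin and fibrinogen genes and bright for VWF, and S15 and S20 are less dark than S2, S7 and S11.

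The comparison of pBTSCs with each liver sort asks which genes set the biliary tree cells apart from liver cells. RNA of the liver-made clotting proteins was far lower in pBTSCs, while VWF and THBD were above every liver library. In 22 of the 36 genes every pBTSC library was below every liver library, in 2 genes every pBTSC library was above, and in 12 genes the ranges overlapped. The share of all genes parted in this way was not computed, so these counts only describe the list. A gene was called at a limma adjusted p-value under 0.05, with Benjamini-Hochberg adjustment over all genes tested, and a log2 fold change beyond 1 in either direction. Against CD45-/EpCAM+ cells, 22 genes fell and 2 rose, with a median log2 fold change of -4.90 over the 36 genes and 0.08 over all genes. Of all 15576 genes tested, 25.1% were called. In bulk samples such as these, fewer cells of a type and less RNA per cell cannot be told apart.

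The counts were similar against the other sorts, although all 5 comparisons share the same pBTSC libraries and are not independent. Against CD45-/EpCAM- cells 22 genes fell and 6 rose, where 36.6% of all genes were called. Against CD45+ cells 22 fell and 1 rose, where the background was 20.6%. Against CD31+ cells 22 fell and 2 rose, with a background of 14.4%, and against CD146+ cells 22 fell and 2 rose, with 22.2%. The 22 genes that fell in each comparison were those in which every pBTSC library was below every liver library. For 21 of them the difference was between 15.9-fold (F5) and 1026-fold (FGB), both against CD45-/EpCAM- cells, and PROS1 was the exception.

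**Figure D2:**
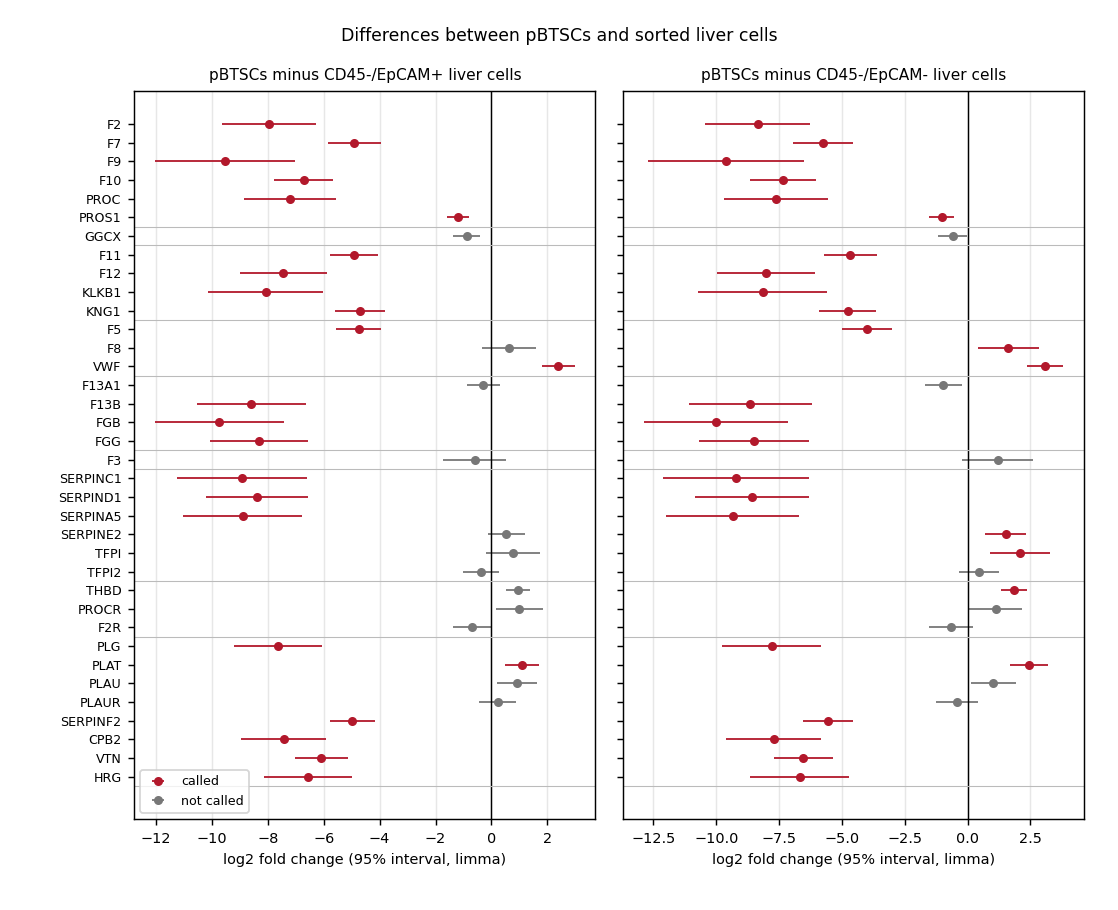
Log2 fold change of each of the 36 genes in pBTSCs relative to CD45-/EpCAM+ liver cells (left) and CD45-/EpCAM- liver cells (right), with 95% intervals from limma; grey lines part the roles and red marks called genes. The 22 genes that fell lie left of 0, PROS1 being nearest to it at -1.20 and -1.03, and VWF lies at 2.39 and 3.09.

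The vitamin K-dependent proteins are carboxylated on glutamate residues, which lets them bind calcium and membranes. All 6 with a row fell against every liver sort. F2, which encodes prothrombin, the precursor of thrombin, was at 25.6, 36.4, 31.2, 415 and 694 normalized counts in S2, S7, S11, S15 and S20, and at 49707, 22610, 13857 and 23082 in the CD45-/EpCAM+ libraries S4, S9, S13 and S19. The highest pBTSC library was thus far below the lowest liver library. The log2 fold change was -7.96 (SE 0.80, limma adjusted p = 7.26e-07), a 249-fold difference.

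F9, the gene of the protease that is lacking in haemophilia B, was at 1.80, 1.87 and 0.631 in S2, S7 and S11 and at 156 and 250 in S15 and S20. In S11 it was under the floor of 1.91. The 15 liver libraries ran from 3796 to 19300 with a median of 10364. The difference from CD45-/EpCAM+ cells was -9.53 on the log2 scale (SE 1.19, adjusted p = 8.08e-06), a size that depends on the pseudocount of 1 where counts are this low.

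F10 encodes the protease that cleaves prothrombin, and F7 the partner of tissue factor. F10 was between 29.2 and 176 in the pBTSCs and between 4247 and 18081 in liver (log2 fold change -6.71, SE 0.50, against CD45-/EpCAM+ cells). F7 was at 20.6, 29.2, 15.3, 50.3 and 40.8 in S2, S7, S11, S15 and S20, and between 437 and 2682 in liver. The value of F7 in S15 was little above the floor of that library. Its log2 fold change against CD45-/EpCAM+ cells was -4.90 (SE 0.45).

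PROC and PROS1 encode protein C, an anticoagulant protease, and its cofactor protein S, and they differed widely in size of change. PROC was at 9.30, 31.5, 14.7, 201 and 302 in S2, S7, S11, S15 and S20, against 3961 to 14290 in liver, a log2 fold change of -7.19 (SE 0.78). PROS1 was at 3893, 3324, 4075, 5036 and 4735 in the same pBTSC libraries and between 6981 and 12508 in liver. Its pBTSC libraries were all lower, but the fall was the smallest of the 22, from 1.39 against CD31+ cells to 1.03 against CD45-/EpCAM- cells on the log2 scale. Without S5 or without S7, PROS1 dropped below the fold threshold against CD45-/EpCAM- cells, and with libraries rescaled to the same total it did so against all 3 sorts defined by CD45. GGCX, the carboxylase that modifies these proteins, was at 1261 to 1833 in the pBTSCs and 1398 to 4732 in liver. It changed by -0.89 on the log2 scale against CD45-/EpCAM+ cells (SE 0.23, adjusted p = 0.005), inside the fold threshold.

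The contact system starts clotting on charged surfaces and releases bradykinin, and all 4 of its genes fell against every sort. F12, which encodes the initiating protease, was at 12.7, 11.1, 12.1, 215 and 152 in S2, S7, S11, S15 and S20 and between 3670 and 13823 in liver. KLKB1, the gene of plasma prekallikrein, was at 1.59, 2.07, 3.18, 100 and 131 in the same order, against 1853 to 9080 in liver. For both the 3 H2B-GFP libraries were the lowest of all 20. The log2 fold changes against CD45-/EpCAM+ cells were -7.45 (SE 0.74) and -8.08 (SE 0.97).

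KNG1, the gene of kininogen, the source of bradykinin, and F11, the gene of the protease that activates factor IX, fell less. KNG1 was at 529, 793, 512, 1402 and 1952 in S2, S7, S11, S15 and S20 and at 11036 to 44860 in liver, a log2 fold change of -4.71 (SE 0.43). F11 was at 83.7, 62.1, 104, 50.3 and 99.1 in the same libraries and at 779 to 4547 in liver, a log2 fold change of -4.91 (SE 0.41). In F11 the wild-type libraries were not the higher ones, although 50.3 in S15 was close to the floor of 37.7.

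FGB, a fibrinogen gene, had the largest change of the 36 against CD45-/EpCAM+ cells. This gene of the beta chain was at 41.9, 84.3, 72.3, 1704 and 3237 in S2, S7, S11, S15 and S20. In the CD45-/EpCAM+ libraries S4, S9, S13 and S19 it was at 586237, 401162, 85157 and 141561. The groups were apart by an 849-fold difference, -9.73 on the log2 scale (SE 1.09, adjusted p = 2.58e-06). FGG, the gene of the gamma chain, was between 104 and 3074 in the pBTSCs and between 48682 and 382674 in liver, a log2 fold change of -8.30 (SE 0.83). Fibrin is cross-linked by factor XIII, whose catalytic and carrier subunits behaved differently. F13B, the carrier subunit, was at 0.718, 0.272, 1.34, 53.0 and 53.3 in S2, S7, S11, S15 and S20 and at 1194 to 4611 in liver (log2 fold change -8.60, SE 0.93). F13A1, the catalytic subunit, which macrophages and megakaryocytes are known to make, was at 460.1, 869.6, 280.3, 427 and 306 in the pBTSCs and at 412 to 1022 in liver. The ranges of F13A1 overlapped, and its log2 fold change against CD45-/EpCAM+ cells was -0.28 (95% interval -0.88 to 0.31, adjusted p = 0.45).

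The cofactors parted in the same way. F5 encodes factor V, the cofactor of factor X. It was at 300, 285, 303, 416 and 365 in S2, S7, S11, S15 and S20 and at 2311 to 14184 in liver, a log2 fold change of -4.75 (SE 0.38, adjusted p = 7.97e-08). The 5 pBTSC libraries were close together. F8, the gene of factor VIII, was at 2469, 5068, 2753, 4257 and 2782 in the pBTSCs and at 523 to 3848 in liver, with overlapping ranges. Its log2 fold change was 0.64 against CD45-/EpCAM+ cells (95% interval -0.33 to 1.60, adjusted p = 0.29). It rose against CD45-/EpCAM- cells, where S5 and S14 were at 523 and 2217, by 1.63 (SE 0.57, adjusted p = 0.026), a call that was lost without S5 (523) or without S7 (5068).

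F8 lay within or above the liver range in every pBTSC library, whereas markers of liver sinusoidal endothelium were lower. All 5 such markers tested fell against CD45-/EpCAM+ cells, with a median log2 fold change of -7.08. STAB2, a scavenger receptor of these cells, was at 41 to 987 in the pBTSCs and at 5300 to 60522 in liver.

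VWF carries factor VIII and tethers platelets, and of the 36 genes it had the highest log2 fold change in pBTSCs against CD45-/EpCAM+ cells. It was at 25734, 30693, 18211, 17881 and 13150 in S2, S7, S11, S15 and S20. The CD45-/EpCAM+ libraries S4, S9, S13 and S19 had 3566, 2946, 3504 and 6062, and the highest of all liver libraries, the CD146+ library S17, had 6954. Every pBTSC library was thus above every liver library. The log2 fold change was 2.39 against CD45-/EpCAM+ cells (SE 0.28, adjusted p = 3.78e-06), 3.09 against CD45-/EpCAM- cells, 2.12 against CD45+ cells, 1.97 against CD31+ cells and 1.94 against CD146+ cells, and all 5 were called. Among 8 general endothelial markers, EMCN and PECAM1 also rose against CD45-/EpCAM+ cells and the other 6 did not pass the test. Their summed level was from 69859 to 83707 in the pBTSCs and from 19506 to 101718 over the liver libraries. The part of endothelial cells in the VWF result was not tested.

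Thrombomodulin and the endothelial protein C receptor hold thrombin and protein C on the vessel wall. THBD, the gene of thrombomodulin, was at 3981, 4497, 3880, 4861 and 4164 in S2, S7, S11, S15 and S20 and at 864 to 3447 in liver. No liver library reached the lowest pBTSC library. THBD rose against CD45-/EpCAM- cells by 1.84 on the log2 scale (SE 0.25, adjusted p = 1.66e-05). Against CD45-/EpCAM+ cells its log2 fold change was 0.96 (SE 0.20, adjusted p = 0.0011), just under the fold threshold, and it passed both thresholds when libraries were rescaled to the same total. THBD was not called against CD45+, CD31+ or CD146+ cells. PROCR was at 352 to 754 in the pBTSCs and 103 to 501 in liver, a 2.01-fold difference against CD45-/EpCAM+ cells (95% interval 0.16 to 1.85 on the log2 scale, adjusted p = 0.057). F2R, which encodes the thrombin receptor PAR1, was at 1094 to 1448 in the pBTSCs, inside the liver range of 835 to 2846.

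Of the inhibitors, the serpins known to be secreted by the liver fell, and SERPINE2, TFPI and TFPI2 were called lower against none of the sorts. SERPINC1, the gene of antithrombin, was at 6.80, 8.01, 8.29, 339 and 739 in S2, S7, S11, S15 and S20 and at 9368 to 41407 in liver (log2 fold change -8.91, SE 1.10, against CD45-/EpCAM+ cells). SERPIND1, the gene of heparin cofactor II, was between 12.6 and 424 in the pBTSCs and between 10552 and 27488 in liver (log2 fold change -8.37, SE 0.86). SERPINA5, the gene of the protein C inhibitor, was between 9.62 and 539 in the pBTSCs and between 12060 and 52798 in liver (log2 fold change -8.90, 95% interval -11.02 to -6.79). In all 3 genes S15 and S20 stood far above S2, S7 and S11 and far below liver.

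TFPI blocks the tissue factor and factor VII complex. It was at 454, 597, 840, 810 and 1212 in S2, S7, S11, S15 and S20 and at 130 to 1231 in liver. SERPINE2, the gene of protease nexin-1, was at 400 to 856 in the pBTSCs and 205 to 920 in liver. Both rose against CD45-/EpCAM- cells, TFPI by 2.09 (SE 0.57, adjusted p = 0.0061) and SERPINE2 by 1.51 (SE 0.39, adjusted p = 0.0043) on the log2 scale, and neither passed the test against the other sorts. Both calls were lost without S5, 1 of the 2 CD45-/EpCAM- libraries. TFPI2, a related inhibitor of plasmin and trypsin, was at 1856 to 3933 in the pBTSCs and 1727 to 8252 in liver and was called in none of the 5 comparisons by limma.

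F3 encodes tissue factor, the starter of clotting. It was at 2476, 3313, 1751, 839 and 471 in S2, S7, S11, S15 and S20 and at 571 to 3433 in liver, so the pBTSC and liver ranges overlapped. Its log2 fold changes ran from -0.71 against CD45+ cells to 1.21 against CD45-/EpCAM- cells, and none was called.

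Fibrinolysis turns on plasmin, which is made from plasminogen by activators and held back by liver-made inhibitors. PLG, the gene of plasminogen, was at 155, 154, 57.3, 769.5 and 1888 in S2, S7, S11, S15 and S20 and at 22881 to 113259 in liver, a 199-fold difference from CD45-/EpCAM+ cells (log2 fold change -7.63, SE 0.75, adjusted p = 5.8e-07). CPB2, which encodes a carboxypeptidase that slows fibrinolysis, was between 18.1 and 355 in the pBTSCs and between 4514 and 16665 in liver (log2 fold change -7.43, SE 0.72). SERPINF2, the gene of alpha-2-antiplasmin, was at 409, 409, 254, 370 and 411 in S2, S7, S11, S15 and S20 and at 6111 to 26946 in liver (log2 fold change -4.97, SE 0.38). The H2B-GFP and wild-type libraries of SERPINF2 overlapped.

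VTN encodes vitronectin, an adhesive protein of plasma, and HRG encodes histidine-rich glycoprotein, which binds plasminogen. VTN was at 233, 330.5, 268, 666 and 1201 in S2, S7, S11, S15 and S20, against 17348 to 54587 in liver, a log2 fold change of -6.08 (SE 0.45). HRG was at 108, 156, 63.1, 842 and 1263 in the same libraries, against 11953 to 49393 in liver, a log2 fold change of -6.56 (SE 0.75).

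The plasminogen activators and their receptor were not called lower against any sort. PLAT, the gene of tissue plasminogen activator, was at 2862, 2279, 1482, 1445 and 2398 in S2, S7, S11, S15 and S20, and at 1098, 1183, 540 and 1119 in the CD45-/EpCAM+ libraries S4, S9, S13 and S19. These groups did not overlap, although 2137 in S3 and 2027 in S8, both CD45+, lay inside the pBTSC range. PLAT rose against CD45-/EpCAM+ cells by 1.10 (SE 0.29, adjusted p = 0.0055) and against CD45-/EpCAM- cells by 2.44 (SE 0.36, adjusted p = 3.71e-05) on the log2 scale. The former fell under the fold threshold without S2 (0.97), without S13 (0.83) and without the 3 shallow libraries (0.95).

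PLAU, the gene of urokinase, was at 1565, 981, 858, 1383 and 1199 in S2, S7, S11, S15 and S20 and at 261 to 1164 in liver. It rose against CD31+ cells by 1.49 (SE 0.43, adjusted p = 0.021) and against CD146+ cells by 1.80 (SE 0.43, adjusted p = 0.0051). All CD31+ and CD146+ libraries have storage numbers from S16 to S23. In that range PLAU was also low in CD45+ S18 and S23 (412 and 422) and CD45-/EpCAM+ S19 (384), against 435 to 1164 in S3 to S14. Sort and storage range therefore cannot be told apart in these 2 comparisons. The call against CD31+ cells was lost without S16 or S21, and the call against CD146+ cells was lost without S22, the shallowest library. PLAUR, the urokinase receptor, was at 526 to 1212 in the pBTSCs and 417 to 1336 in liver and was not called.

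Markers of hepatocytes and of macrophages moved with the 22 genes. All 8 hepatocyte markers fell against each liver sort, and ALB was at 287 to 25087 in the pBTSCs. All 7 macrophage markers fell against CD45-/EpCAM+, CD45-/EpCAM- and CD45+ cells and 6 of the 7 against CD31+ and CD146+ cells, and their summed level was 4781 to 13124 in the pBTSCs and 37459 to 133485 in liver. The part of these cells in the fall was not tested. Changes were also taken within ranges of storage numbers, H2B-GFP piglets against liver S3-S14 and wild-type piglets against liver S16-S23. FGB changed by -11.9 and -6.03 and VWF by 2.84 and 1.54 on the log2 scale. All 24 genes called against CD45-/EpCAM+ cells had the same sign in both. For the 22 genes and VWF this was fixed in advance, since no pBTSC library overlapped the liver range. The shared sign is therefore no separate support.

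The remaining result among pBTSCs concerns the line of the piglets. In libraries from H2B-GFP piglets most of the liver-made genes were lower still than in those from wild-type piglets. Of the 36 genes, 16 fell and 1 rose, where 1.77% of all 14912 genes were called by limma over the 5 libraries. F9, F13B, KLKB1 and SERPINC1 reached the filter only through the wild-type libraries, so no test is read from their calls. Of the other 32 genes, 12 fell and 1 rose. SERPINA5 had a log2 fold change of -5.39 (SE 0.31), FGB of -5.19 (SE 0.39), SERPIND1 of -4.71 and F2 of -4.08. It was -3.81 for F12, -3.56 for CPB2, -3.43 for PLG and -1.47 for KNG1.

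This result rests on 2 wild-type libraries, and the number of calls fell when either was left out, S20 or S15, the shallow library. Without it, with S20 as the lone wild-type library and assumed to vary like the others, 5 genes were called, namely CPB2, F2, FGB, SERPINA5 and SERPIND1, and 4 genes could no longer be tested. Without S20, 6 genes were called. Without a trend in the variance 10 were called, and without S11 also 10. In all 17 genes the lines did not overlap, so the direction could not turn under these settings.

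Not all genes that were low against liver were called between the lines. In F5, PROS1, F7 and F10 every H2B-GFP library was below both wild-type libraries, while SERPINF2 and F11 overlapped. Among the other genes not called, F2R was parted in the same direction and VWF in the opposite one. In all, 13 of the genes not called overlapped. The share of all genes parted in this way was not computed, so no difference between the lines is read from it. F5 changed by -0.40 (95% interval -0.77 to -0.02, adjusted p = 0.25), SERPINF2 by -0.16 (-0.75 to 0.43, adjusted p = 0.76), F11 by 0.20 (-0.75 to 1.16, adjusted p = 0.81) and PROS1 by -0.38 (-0.69 to -0.07, adjusted p = 0.20) on the log2 scale. F7 changed by -1.07 (adjusted p = 0.27) and F10 by -1.94 (adjusted p = 0.059). VWF, THBD, PLAT, PLAU, F8 and TFPI were not called either, with log2 fold changes from -0.70 to 0.67. F3 was the gene that rose, by 1.95 (SE 0.33, adjusted p = 0.045), and its call was lost with any of the 5 libraries left out.

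Expressed as a percentage of the median of the 15 liver libraries, the lines were also apart. Over the 21 genes that fell strongly, without PROS1, the median was 0.175% in S2, 0.216% in S7 and 0.172% in S11, against 1.93% in S15 and 3.29% in S20. In the wild-type libraries the 21 genes lay in a narrow band, from 1.04% to 5.71% in S15 and from 1.98% to 7.94% in S20. In the H2B-GFP libraries they ran from 0.00609% for F9 in S11 to 3.69% for SERPINF2 in S2.

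ALB, which is not a member of the list, was at 376, 287 and 288 normalized counts in S2, S7 and S11 and at 19832 and 25087 in S15 and S20. As a percentage of its liver median it was at 0.0279%, 0.0213% and 0.0214% in the former and at 1.47% and 1.86% in the latter. Of the 8 hepatocyte markers 5 were called lower in H2B-GFP piglets (ALB, APOA2, APOB, TF and TTR) and the other 3 were not called. The summed level of the 8 was 27038 to 30208 against 53274 to 69263. APOA1 made up most of it in each H2B-GFP library, and none of the 8 markers was at 0. The macrophage markers C1QA, C1QB and CSF1R were also lower in the H2B-GFP libraries, and the Schwann cell marker SOX10 was higher. The part of these in the result was not tested.

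**Figure D3:**
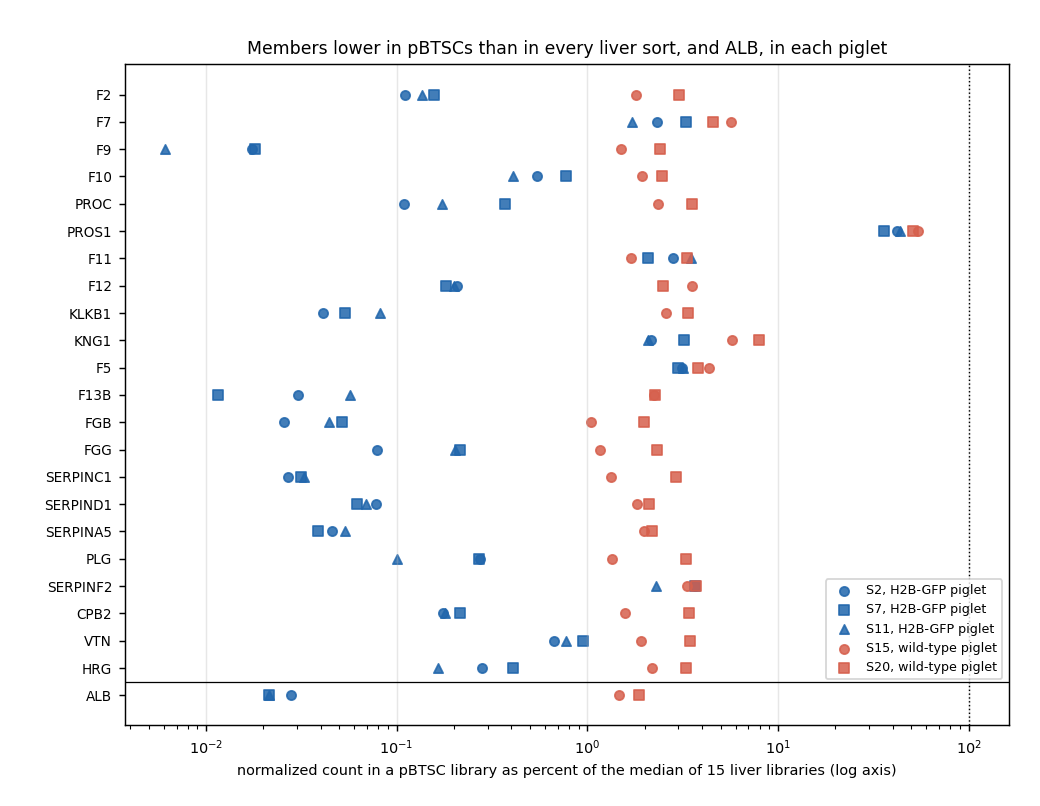
Normalized count of the 22 genes that fell, and of ALB, in each pBTSC library as a percentage of the median of the 15 liver libraries, on a log axis; blue marks H2B-GFP and red wild-type piglets, and the dotted line is 100%. Red points lie between 1.04% and 7.94% in 21 genes, while blue points spread from 0.00609% to 3.69%, and ALB follows FGB and SERPINC1.

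Among liver libraries the levels of these genes differed little between sorts in some runs of storage numbers. In the run from S16 to S19, which holds a CD31+, a CD146+, a CD45+ and a CD45-/EpCAM+ library, the highest library was at most 1.33 times the lowest in any of the 36 genes, and the median ratio was 1.24. In S21 to S23, with 3 sorts, the median ratio was 1.24, and in S8 and S9 it was 1.16. Across the 5 CD45+ libraries, which fall into 5 such runs, the median ratio was 2.55 and the highest was 5.49, for FGB. The median ratio across runs was 3.03 for the 4 CD45-/EpCAM+ libraries. For the sorts with 2 libraries it was 1.64 (CD45-/EpCAM-), 1.38 (CD31+) and 1.58 (CD146+). Such a ratio grows with the number of libraries, and it was not computed over all genes. These ratios are descriptions, since runs and donors could not be matched, and the spread between sorts was wider in S3 to S5 (1.80) and in S12 to S14 (1.96).

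FGB was at 334757 to 586237 in the 5 libraries from S3 to S9, at 66404 to 151039 in S12 to S14, at 118586 to 150799 in S16 to S19 and at 163382 to 207124 in S21 to S23. The libraries of the S3 to S9 range were thus above all others. HRG ran the other way, with 11953 to 21421 in S3 to S9 and 22736 to 49393 in the 10 later libraries. F3 was at 2504 to 3080 in S16 to S19 and at 835 to 946 in S21 to S23, with no overlap. The runs were taken up after seeing the data. The share of all genes parted between runs was not computed, so these values are descriptions only.

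**Figure D4:**
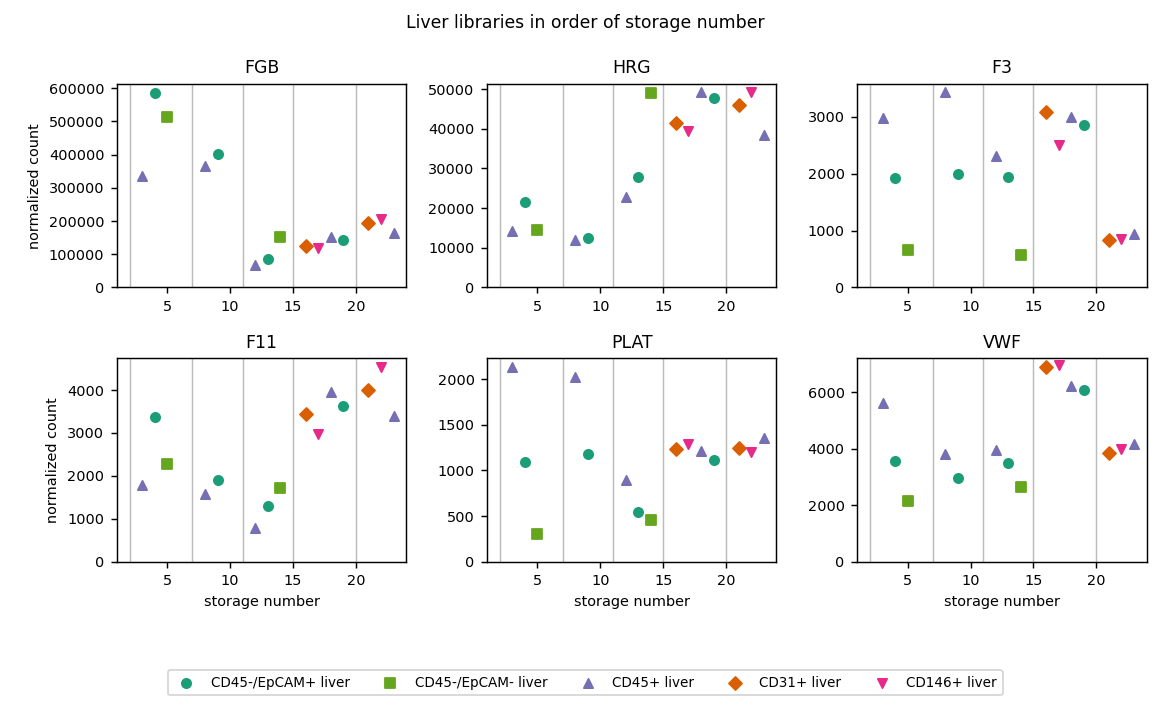
Normalized counts of FGB, HRG, F3, F11, PLAT and VWF in the 15 liver libraries against storage number, with a symbol for each sort; vertical lines mark the numbers of the pBTSC libraries. In F3 the 4 sorts in S16 to S19 lie between 2504 and 3080, and the 2 CD45-/EpCAM- libraries, at 657 and 571, lie below their neighbours.

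The ranges S3-S14 and S16-S23 were compared with the sort as a term in the model. HRG was lower by 1.40 (SE 0.38, adjusted p = 0.046) and F11 by 1.25 (SE 0.32, adjusted p = 0.039) on the log2 scale in S3-S14, and PLAU was higher by 1.04 (SE 0.28, adjusted p = 0.044). These 3 genes of 36 compare with 3.78% of the 14910 genes tested. All 3 were near the threshold: leaving out S8, S9, S16, S18, S19, S21 or S23 left 0 called, leaving out S3 or S12 left 1, without a trend in the variance 0 were called, and without the filter on low values 1 was. FGB and FGG changed by 0.58 (95% interval -1.19 to 2.35) and 0.33 (-1.26 to 1.91), intervals wide enough to hold large differences in either direction.

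The CD45-/EpCAM- sort was compared with the CD45+ and CD45-/EpCAM+ sorts within the same model. Of the 36 genes, 1 was called, where 3.6% of all genes were. PLAT was at 304 in S5 and 455 in S14, against 2137 and 1098 in S3 and S4 and 900 and 540 in S12 and S13. Each was below its neighbours in storage number, and the log2 fold change was -1.67 (SE 0.36, adjusted p = 0.024). F3 was lower in S5 (657) and S14 (571) than in S3, S4, S12 and S13 (1926 to 2985), a log2 fold change of -1.95 (SE 0.55, adjusted p = 0.066). With the 5 runs as terms, F3 passed the test as well (-1.88, SE 0.15, adjusted p = 0.00059).

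Without the shallow S13 and S22, 5 genes were lower in the CD45-/EpCAM- sort, namely PLAT, F3, TFPI, TFPI2 and SERPINE2, and 3 were with libraries rescaled to the same total. Without S5 or without S8, 0 were called. The 21 liver-made genes were not called between these sorts in any of the settings tried. Markers of several cell types moved with PLAT. PDGFRA and PDGFRB of 7 fibroblast, stellate and smooth muscle markers were lower in this sort. The summed level of the 7 was 33506 to 41102 in the CD45-/EpCAM- libraries and 50690 to 141168 in the CD45+ and CD45-/EpCAM+ libraries. EPCAM, KRT7 and SOX9 of 7 biliary epithelium markers were also lower, and the summed level of the 7 was 6415 to 16259 against 9467 to 29105. PPBP, of 5 megakaryocyte and platelet markers, was lower as well, and TTR, of 8 hepatocyte markers, was higher. The part of these cells in the result was not tested.

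The CD31+ and CD146+ sorts, labelled by antigens of endothelial cells, were compared with the CD45+ and CD45-/EpCAM+ sorts, and no endothelial gene of the list passed the test. VWF was at 6910 and 3831 in the CD31+ libraries S16 and S21, at 6954 and 3973 in the CD146+ libraries S17 and S22, and at 6235 and 4163 in the CD45+ libraries S18 and S23. The log2 fold change of VWF relative to the CD45+ and CD45-/EpCAM+ sorts was -0.02 (95% interval -0.62 to 0.57). For THBD it was 0.02 (-0.51 to 0.54) and for F8 -0.09 (-1.17 to 0.98). By limma 0 of the 36 genes and 0% of the 14910 genes were called, and at an unadjusted p under 0.05 there were 9 genes, 0 of them on the list. The summed endothelial markers were 72805 to 101718 in the CD31+ and CD146+ libraries, overlapping the 41877 to 93450 in the CD45+ libraries.

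A further 40 genes of the pathway, with 37 tested, covered other inhibitors, receptors, secretion factors and platelet proteins. Against CD45-/EpCAM+ cells 11 of them fell and 7 rose, where 10.3% of all genes fell and 14.8% rose, and their median log2 fold change was -0.05. Liver-secreted regulators fell with the 22 genes. FGL1, a fibrinogen-like protein of hepatocytes, was at 10 to 385 in the pBTSCs and 3162 to 19892 in liver, a log2 fold change of -7.48 (SE 0.81). C4BPB, the chain of C4b-binding protein that binds protein S, was at 20 to 46 against 640 to 2845 (-5.18, SE 0.36). SERPINA1, the gene of alpha-1-antitrypsin, changed by -4.48 (SE 0.47), HABP2, a protease that can activate factor VII, by -3.95 (SE 0.25) and A2M, a broad protease inhibitor, by -2.97 (SE 0.52).

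The cargo receptor pair that carries factors V and VIII out of the endoplasmic reticulum, MCFD2 and LMAN1, was lower by smaller amounts. MCFD2 fell by 1.76 on the log2 scale (SE 0.14, adjusted p = 8.6e-08), and LMAN1 changed by -0.98 (SE 0.20, adjusted p = 0.00076), just inside the fold threshold. Between piglet lines 2 of 33 tested fell, with log2 fold changes of -3.75 for FGL1 and -1.18 for F2RL2.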

How the data were processed

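The deposited table holds normalized counts (unit: signal) that the authors computed for each gene and library. The submitters' processing notes name STAR, Salmon and DESeq2, without versions. Poly(A) RNA was sequenced from stranded libraries. The genome build is not given in the sources used here, so no coordinates or sequences are printed. Low values lay within 0.05 reads of whole reads for only 56.0% to 81.6% of values, so no count test was run.

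Log2(normalized count + 1) was tested with limma 3.58.1 in R 4.3.3 (eBayes with trend, Benjamini-Hochberg adjustment over all genes) on genes reaching 10 normalized counts in 2 or more libraries of the fit. All 20 libraries in 6 groups (15576 genes), the 5 pBTSC libraries by piglet line (14912) and the 15 liver libraries with sort and storage range as terms (14910) were fitted. All fold changes are on the log2(value + 1) scale, which understates changes of low genes. In simulated data for the comparison with CD45-/EpCAM+ cells, with 15225 genes tested, 98% of 200 changed genes were called and 5 unchanged genes were called. The simulated libraries were independent, with a fixed spread and without runs of storage numbers or piglet lines. The simulation therefore checks the procedure and does not give error rates for the real libraries. Every gene of the list with a row is named. Some genes of the further pathway list and the marker lists are not reported here. Members, the further pathway list, markers and storage ranges were chosen with earlier results of these data known. Alternatives were other pseudocounts, filters, scalings and fits, and each library left out in turn. The terms for 5 runs, the calls with no fold threshold and the values within storage ranges were added after seeing the data. Genes have no lengths here, so levels are not compared between genes. Floors cover counting error only, and the intervals are limma's, from the spread between libraries. Tables and figures were made with Python 3.11.15, numpy 2.4.6, pandas 2.3.3 and matplotlib 3.10.9.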

Additional observations from a re-analysis of the deposited data

Results flagged for a closer look

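In 5 of the 108 sets of gene and group with 4 or 5 libraries, a library stood far from the others, by Dixon's test at the 95% level, and chance alone flags about 1 in 20 such sets. F3 was highest in S19 among the CD45-/EpCAM+ libraries, at 2861, where the other 3 were between 1926 and 1992. S19 is the CD45-/EpCAM+ library of the run S16 to S19, where all 4 lay between 2504 and 3080. PLAT was lowest in S13 of the same group, at 540, with the others between 1098 and 1183. S13 is shallow, with a floor of 77.1, well under this value. In its deeper neighbours S12 (CD45+) and S14 (CD45-/EpCAM-) PLAT was at 900 and 455. Among pBTSCs, SERPINF2 was lowest in S11, at 254, with the others between 370 and 411. TFPI2 was lowest in S7, at 1856, with the others between 3380 and 3933. F2R was highest in S20, at 1448, with the others between 1094 and 1118.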

How the results depend on the processing

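Over all alternatives tried, 3759 values of called genes kept their direction and call, 113 lost the call and 0 reversed. Called genes that could no longer be tested under an alternative are in none of these counts. In genes whose groups did not overlap, leaving out a library could not reverse the direction. The 21 genes with strong falls stayed called against every liver sort under every alternative run. Counts moved by over 1.5 times in 3 comparisons. Between piglet lines the 17 calls became 5 without the shallow libraries and 10 without a variance trend. Between liver ranges the 3 calls became 1 with no filter, 1 with libraries rescaled to the same total and 0 without a trend. For CD45-/EpCAM- cells the 1 call became 3 on rescaling to the same total, 5 without the shallow libraries and 2 with 5 runs as terms. Leaving out 1 library in turn gave 23 to 27, 25 to 29, 23 to 24, 23 to 25 and 23 to 24 calls against CD45-/EpCAM+, CD45-/EpCAM-, CD45+, CD31+ and CD146+ cells, 5 to 13 between piglet lines, 0 to 3 between liver ranges, 0 to 4 for CD45-/EpCAM- cells and 0 to 0 for CD31+ and CD146+ cells. Rescaling to the same total moved the median of all genes against CD45-/EpCAM+ cells from 0.08 to 0.39 and the calls over all genes from 2302 higher and 1603 lower to 3275 and 1239, and against CD45-/EpCAM- cells from 3114 and 2584 to 4624 and 1509. It raised THBD, PLAU, TFPI and PROCR past the threshold against CD45-/EpCAM+ cells and dropped PROS1 below it. The cause of these shifts was not tested. No paired analysis was possible because the labels give neither replicate numbers nor donors, and the 5 runs of storage numbers used as terms are not known to be donors. Depth limits the values of F7, F11 and F13B in S15, which were close to its floor.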

Other observations

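Of 37 further pathway genes, 7 were higher in pBTSCs than in CD45-/EpCAM+ cells, where 14.8% of all genes were. The share is close to that of all genes, so the count is not read as a result about the list. The genes below are described singly. F2RL2, which encodes the thrombin receptor PAR3, was at 556, 547, 610, 1407 and 1188 normalized counts in S2, S7, S11, S15 and S20 and at 10 to 156 in the liver libraries, where 156 in the shallow S22 is its floor. It rose by 4.39 on the log2 scale against CD45-/EpCAM+ cells (SE 0.39, limma adjusted p = 2.44e-07). GAS6, a vitamin K-dependent ligand of receptor tyrosine kinases, was at 1274 to 1923 in the pBTSCs and 72 to 582 in liver and rose by 2.90 (SE 0.26). Unlike the 6 vitamin K-dependent proteins of the list it was higher in every pBTSC library than in any liver library. MGP, another vitamin K-dependent protein, which restrains calcification, rose by 1.88 (SE 0.43), although the groups nearly met, with 16479 in S3 against 17189 in S2.

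PTGIS, which encodes prostacyclin synthase, was at 3706 to 5212 in the pBTSCs and 200 to 1618 in liver and rose by 2.89 (SE 0.34). ENTPD1, which degrades ADP, was at 2387 to 3089 against 218 to 1675 and rose by 1.58 (SE 0.24). ANXA2, a cell-surface plasminogen receptor, rose by 1.04 (SE 0.20), and NOS3 did not pass the test (0.04, 95% interval -0.66 to 0.74). Fibroblast and smooth muscle markers moved with these genes, since 6 of the 7 tested rose against CD45-/EpCAM+ cells, and their part in the result was not tested.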
